A study of Homo sapiens with 11 samples.

Results

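Gene-desert enhancers are described here as 1953 regions of the HK2 genome that carried H3K27ac without H3K4me3 and lay over 200 kb from any protein-coding transcription start site (TSS). HK2 is an immortalised epithelial cell line from the proximal tubule of the human kidney. ChIP-seq was performed for H3K27ac, H3K4me3 and H3K27me3 with 2 replicates per mark, and 2 RNA-seq libraries were made. All samples came from 1 condition, in DMEM-F12 with 10% FBS, 1% penicillin-streptomycin and 0.05% DMSO, and no treatment was compared. The labels do not say whether the replicates were separate cultures.

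To find the regions, chromosomes 1 to 22 and X of hg19 were cut into 200-bp bins, and a mark was on where its peaks covered at least 100 bp of a bin in both replicates. Adjacent bins with H3K27ac on and H3K4me3 off were joined, which gave 29531 regions. Those whose midpoint fell outside every protein-coding gene body and over 200 kb from the nearest protein-coding TSS were kept, 6.61% of all. Of the other regions, 16814 were intragenic, 8784 were intergenic at 2 to 200 kb from a TSS, and 1980 were closer than 2 kb. The members were thus chosen by H3K27ac, H3K4me3 and distance, and values of these are given as a description. The 3 members just inside the limit lay 200.044, 200.148 and 200.176 kb from a TSS, and the 3 intergenic regions just outside it lay at 199.833, 199.777 and 199.644 kb. The replicates set the number of members, since replicate 1 read alone gave 4418 such regions with a median width of 1000 bp and replicate 2 alone gave 2107 with a median width of 600 bp.

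A gene desert is a long stretch of a chromosome without protein-coding genes. Enhancers are DNA elements bound by transcription factors, and they can act on the promoter of a gene far along the chromosome when the DNA between them loops. H3K27ac marks the nucleosomes around active enhancers and promoters, H3K4me3 marks promoters, and H3K27me3 is laid down by Polycomb complexes at repressed genes. Deserts also hold many genes for long non-coding RNAs (lncRNAs), which are transcripts without a long open reading frame, and several deserts are known to hold distant enhancers of developmental regulators such as SOX9 and MYC.

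The sequences that represent the members are a 200-bp bin from the widest member of each of the 5 clusters with the most members, ties broken by summed width, and the bin shown is the one with the most AP-1 motif matches. Clusters are members joined across gaps of at most 12.4 kb, and each is named by the protein-coding genes on its left and right. AP-1 is the dimer of JUN and FOS family transcription factors, and its motif was searched as TGANTCA, which reads the same on both strands. The bins are given on the plus strand of GRCh37, the build of hg19, from the reference genome. They lie at chrX:45630601-45630800 for DIPK2B-KRBOX4, at chr12:88213401-88213600 for MGAT4C-C12orf50, at chr22:27598801-27599000 for CRYBA4-MN1, at chr4:139577601-139577800 for SLC7A11-NOCT and at chr5:57119401-57119600 for ACTBL2-PLK2. In CRYBA4-MN1 and ACTBL2-PLK2 the greatest width was shared between members, and the leftmost of these was taken. Capitals mark the AP-1 matches.
DIPK2B-KRBOX4: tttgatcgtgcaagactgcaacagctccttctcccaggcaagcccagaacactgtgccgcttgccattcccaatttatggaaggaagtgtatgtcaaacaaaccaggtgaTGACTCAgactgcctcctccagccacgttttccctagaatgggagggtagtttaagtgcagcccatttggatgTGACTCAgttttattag
MGAT4C-C12orf50: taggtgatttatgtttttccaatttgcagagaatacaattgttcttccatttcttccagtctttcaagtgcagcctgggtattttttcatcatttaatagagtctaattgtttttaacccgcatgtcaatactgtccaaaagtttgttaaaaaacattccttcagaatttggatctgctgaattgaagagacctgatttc
CRYBA4-MN1: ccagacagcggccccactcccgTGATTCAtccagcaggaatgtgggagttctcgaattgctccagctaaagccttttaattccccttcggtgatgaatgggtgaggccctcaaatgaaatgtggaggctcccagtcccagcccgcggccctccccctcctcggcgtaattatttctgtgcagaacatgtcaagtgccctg
SLC7A11-NOCT: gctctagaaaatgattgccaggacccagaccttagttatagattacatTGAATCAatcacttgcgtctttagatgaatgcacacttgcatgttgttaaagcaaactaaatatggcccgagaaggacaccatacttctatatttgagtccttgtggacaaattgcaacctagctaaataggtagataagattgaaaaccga
ACTBL2-PLK2: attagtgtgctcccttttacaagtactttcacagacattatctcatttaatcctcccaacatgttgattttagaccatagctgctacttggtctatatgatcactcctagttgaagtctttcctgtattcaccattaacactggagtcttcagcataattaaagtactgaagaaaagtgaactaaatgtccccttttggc
The first bin holds 2 matches, and the third and the fourth hold 1 each. In MGAT4C-C12orf50 and ACTBL2-PLK2 no bin of the member taken held a match. Their GC content was 48.5, 33.5, 56.0, 38.0 and 37.0% in the order shown.

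The RNA was first compared with markers of the labelled cell type. Of 10 proximal tubule markers, 2 reached an FPKM of 1 in both libraries, a unit in which fragments are scaled by transcript length and library size. These were the gamma-glutamyltransferase gene GGT1, at 64.1 and 58.1 FPKM, and the glucose transporter gene SLC5A2, at 1.56 and 2.36 FPKM. The defining genes LRP2, SLC22A6 and HNF4A were listed at 0 in both. Among markers of nephron epithelium, PAX8 and CDH6 were above 1 FPKM and PAX2 was not. Of 5 epithelial markers, the keratin genes KRT8, KRT18 and KRT19 and the adhesion gene EPCAM were at 39.9 to 184 FPKM, whereas CDH1, the E-cadherin gene, was at 0.210 and 0.283. Summed over the lists, podocyte, endothelial, leukocyte and distal nephron markers stood at 0 to 0.0827 FPKM in either library. The fibroblast list summed to 41.2 and 40.6 FPKM, of which COL1A1 gave 40.3 and 39.9 and PDGFRB 0.933 and 0.693, while COL1A2 was listed at 0. HK2 RNA thus held most of the epithelial markers without CDH1 at 1 FPKM, and most genes of a mature proximal tubule were low or listed at 0. These are bulk samples, in which fewer expressing cells and less RNA per cell cannot be told apart.

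Members were thinly spread. Deserts, taken as sequence outside protein-coding bodies and over 200 kb from a protein-coding TSS, made up 580 Mb or 20.5% of the sequenced genome, and held 3.37 members per Mb. Intergenic sequence nearer to a TSS held 9.49 regions of the same marks per Mb and gene bodies held 12.9. The width of single regions showed no such difference, with a median of 600 bp in each of the 3 classes. Of the members, 193 were a single bin wide and 280 (14.3%) reached 2 kb. Together they covered 1981.4 kb.

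The median member lay 358 kb from the nearest protein-coding TSS, with quartiles at 257 and 549 kb. Distances over 500 kb were found for 591 members (30.3%) and over 1 Mb for 121 (6.20%). The flanking gene on the farther side began at a median of 819 kb. The 3 farthest members were all on chromosome 4. A pair of them, 800 and 600 bp wide and 600 bp apart in hg19 at chr4:33837801-33838600 and chr4:33839201-33839800, lay 2209 and 2208 kb from ARAP2, which encodes a GTPase-activating protein. Both fell within 1 H3K27ac peak of 3507 bp in replicate 1, and each matched a peak of its own in replicate 2. The third, a region of 2 kb at chr4:180545401-180547400, was 2183 kb from AGA, the gene of a lysosomal amidase. ARAP2 was at 1.95 and 2.13 FPKM and AGA at 14.0 and 20.7.

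The 5 widest members were supported by a single H3K27ac peak in each replicate. The widest, of 11200 bp between PITRM1 and KLF6 at chr10:3509001-3520200, lay in a peak of 14106 bp in replicate 1 and 11109 bp in replicate 2. It also held 4 H3K4me3 peaks of replicate 1, covering 2492 bp, and none of replicate 2, while the other four had no H3K4me3 peak in either replicate. The next spanned 9800 bp between MYC and GSDMC at chr8:129179201-129189000, with peaks of 20119 and 9847 bp. Members of 9600 bp between TUSC1 and CAAP1, 9000 bp between FN1 and MREG, and 8600 bp between GPAT3 and NKX6-1 followed. Peaks of replicate 1 were the wider in 4 of the 5, and the exception was the FN1 member at 9292 against 9366 bp. No widest member had an AP-1 match in its central 400 bp.

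Members lay in a minority of deserts. Of 941 deserts, 373 (39.6%) held a member, and 59 deserts with 10 or more held 960 members (49.2%). The 10 deserts with the most members, a tie at 22 broken by summed width, held 290 (14.8%) in 2.23% of desert sequence. Both of these sets were picked by their number of members, so their large shares follow from the choice and are a description. Deserts with members were longer, with a median of 675 kb against 214 kb for those without. By chromosome, chromosome 4 held the most, 234, followed by chromosomes 6 and 2 with 179 each. Density was highest on chromosome 22, at 8.48 members per Mb of desert, although that chromosome has only 3.42 Mb of desert, and lowest on chromosome 18, at 1.42.

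**Figure D1:**
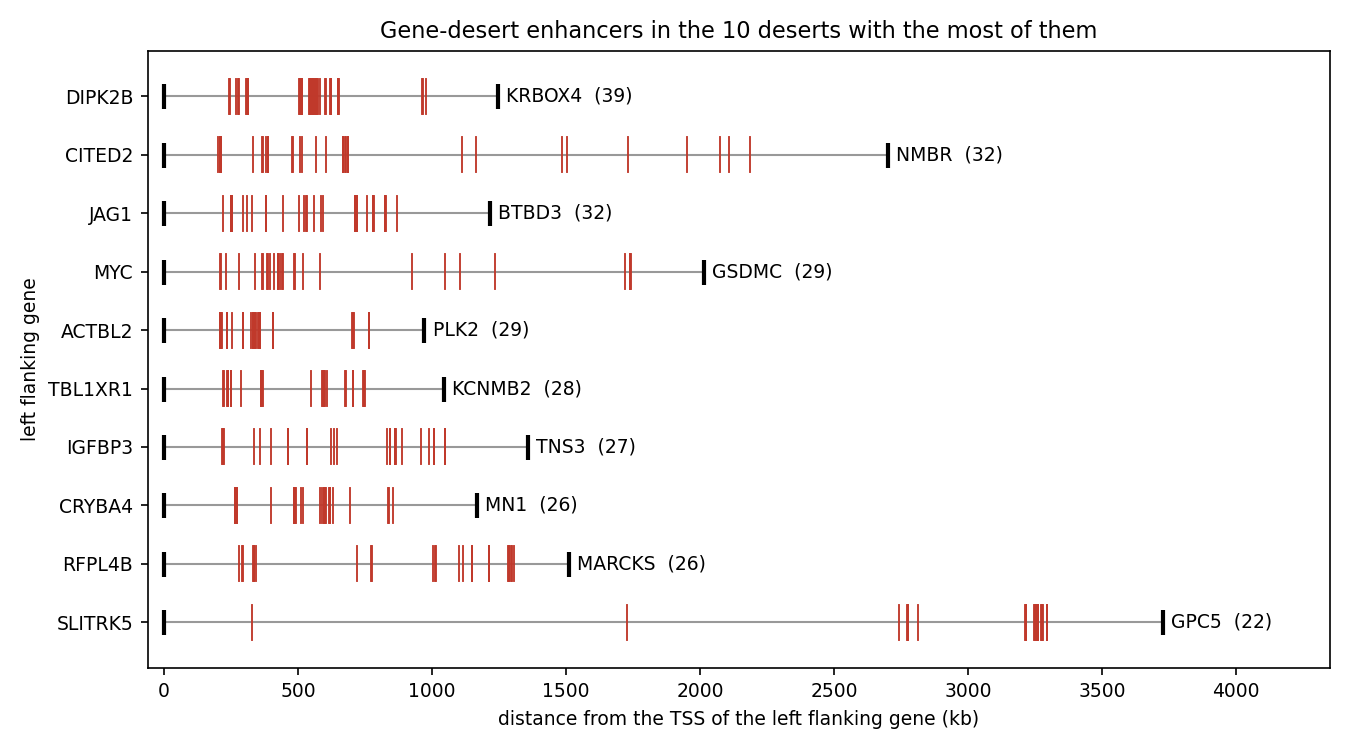
Position of each gene-desert enhancer (red tick) in the 10 deserts with the most of them, as distance in kb from the TSS of the left flanking gene. Black bars mark the TSS of the left and right flanking genes, and the number of members is in brackets. Members of DIPK2B-KRBOX4 crowd around 550 kb, while those of SLITRK5-GPC5 lie mostly toward GPC5.

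The desert with the most members, 39, was on the X chromosome between DIPK2B, of a family of protein kinase-like proteins, and KRBOX4, which encodes a KRAB-domain protein. Its members covered 54400 bp of 847 kb, and 31 of them were nearer to DIPK2B. DIPK2B was listed at 0 in both libraries, whereas KRBOX4 was at 10.5 and 10.4 FPKM. CITED2 and JAG1 each flanked a desert with 32 members. CITED2, a partner of the CBP and p300 acetyltransferases, was at 87.4 and 86.9 FPKM, while NMBR on the far side, a neuropeptide receptor gene, was listed at 0 and at 0.104. JAG1, a Notch ligand gene, was at 47.0 and 49.4 FPKM and BTBD3 across the desert was at 9.67 and 10.1.

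Next came 29 members between MYC, the gene of a growth-promoting transcription factor, and the gasdermin gene GSDMC. MYC read 5.75 FPKM in library 1 and 50.4 in library 2, a spread that leaves its level uncertain, and GSDMC was listed at 0. A further 29 lay between the actin-like gene ACTBL2, at 1.09 and 0.988 FPKM, and the kinase gene PLK2, at 133 and 137. Here 24 members were nearer to ACTBL2, the flank with the lower RNA. Between TBL1XR1, a corepressor subunit gene at 21.4 and 33.1 FPKM, and the potassium channel subunit gene KCNMB2, listed at 0, there were 28.

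The remaining deserts of the 10 held 27 to 22 members. IGFBP3, which encodes a binding protein of insulin-like growth factors, was at 195 and 197 FPKM and TNS3, a focal adhesion gene, at 17.1 and 13.6. The lens crystallin gene CRYBA4 was listed at 0 and the coactivator gene MN1 was at 4.19 and 4.23. RFPL4B was listed at 0 and MARCKS, a membrane substrate of protein kinase C, was at 93.5 and 84.6. SLITRK5 was at 2.13 and 2.43 and the glypican gene GPC5 at 0.10 and 0.175, although 20 of the 22 members between them were nearer to GPC5. MGAT4C-C12orf50 also held 22 members but covered fewer bases, 21000 against 33200 bp. MGAT4C was at 0.0147 and 0.0206 FPKM and C12orf50 was listed at 0. At least 1 flank was thus at 1 FPKM or more in both libraries in the 10 deserts taken, with both flanks there in 2 of them, JAG1-BTBD3 and IGFBP3-TNS3, whereas neither flank was in the desert tied with the last. Of all deserts with both flanks measured, 74.9% had at least 1 such flank and 25.4% had both.

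**Figure D2:**
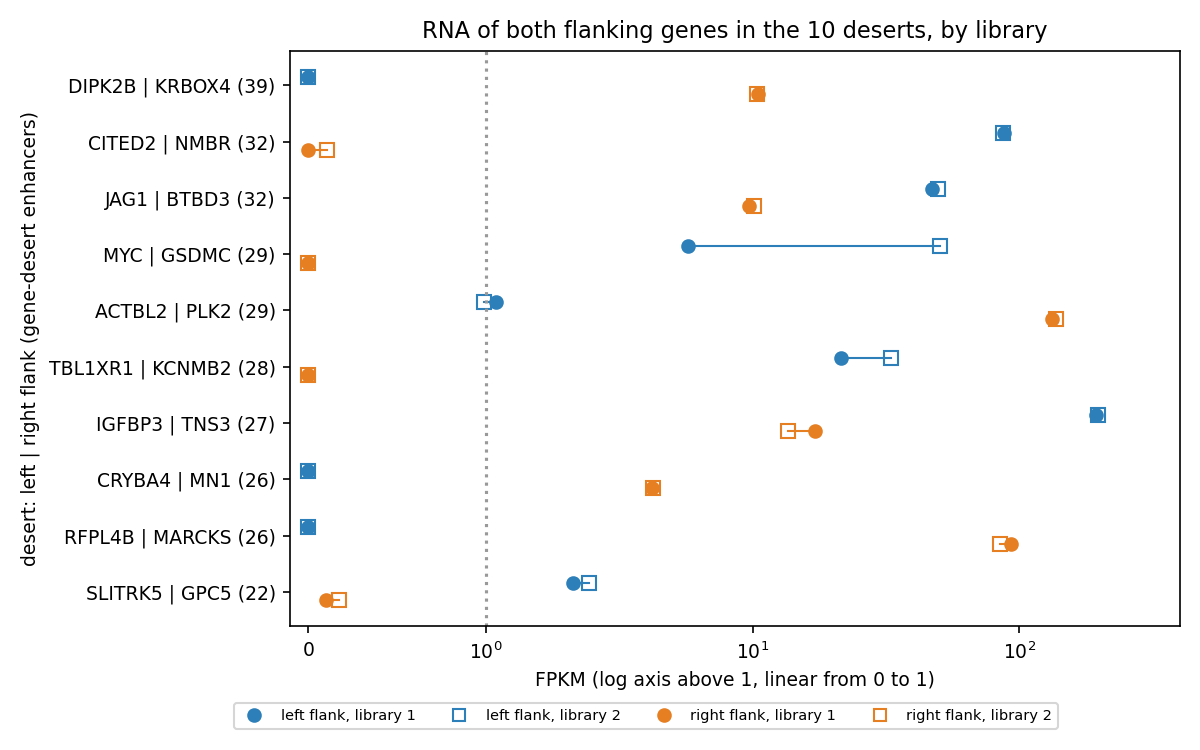
FPKM of the left (blue) and right (orange) flanking genes of the 10 deserts with the most members, in library 1 (filled circle) and library 2 (open square), on an axis that is linear up to 1 and logarithmic above. The dotted line is at 1 FPKM. In 8 deserts 1 flank reached it in both libraries and in 2 both did, MGAT4C-C12orf50 with as many members as SLITRK5-GPC5 is not drawn and had no such flank, and MYC is the gene whose libraries lie farthest apart, at 5.75 and 50.4.

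Ranking by density gave other deserts. Among the 25 with the most members, the densest was the short desert between FN1, the fibronectin gene, and MREG, with 18 members in 177 kb or 101 per Mb. FN1 was at 2333 and 2343 FPKM, the highest level among all nearest genes of members, and MREG at 5.25 and 5.08. PITRM1-KLF6 followed with 18 members at 86.8 per Mb. KLF6, a zinc-finger transcription factor gene, was at 29.7 and 28.1 FPKM and PITRM1, a mitochondrial peptidase gene, at 29.2 and 32.1.

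Deserts with 5 or more members had more RNA at their flanks than those with fewer, without a rise at each step. In the 568 deserts without a member, the flank with the higher RNA had a median of 5.64 FPKM. The median was 5.46 where 1 member was present, 7.07 with 2 to 4, 9.89 with 5 to 9 and 15.4 with 10 or more. At least 1 flank at 1 FPKM in both libraries was found for 71.0% of deserts without members and for 74.1, 79.3, 84.8 and 87.9% in these steps, of the deserts with both flanks measured. Both flanks were there in 19.6, 25.9, 24.7, 50.6 and 46.6%, and the flank with the lower RNA had a median of 0, 0.0124, 0.0345, 1.09 and 1.01 FPKM. Median desert length moved along the same order, from 214 kb to 498, 656, 707 and 925 kb, and its part in the result was not tested.

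Each member was also paired with the protein-coding gene of nearest TSS. The members had 480 nearest genes, of which 474 were measured and 286 (60.3%) reached 1 FPKM in both libraries. Of all protein-coding genes, 58.9% did so, and the share was 70.5% among the nearest genes of intergenic regions and 80.6% among those of intragenic regions. The nearest genes of members were therefore close to the background of all genes in this share. They were also close to it in the share at 10 FPKM or more, 27.8% against 30.3%, in median FPKM, 3.03 against 3.35, and in the share with an active promoter (H3K4me3 and H3K27ac on at a TSS), 55.5% against 52.1%. A further 92 nearest genes (19.4%) were listed at 0 in both libraries.

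The flanks on both sides were then counted. A share over a pair of genes is higher than over 1 gene by construction, so its background is given over the same pairs. Of 1928 members with both flanking genes measured, 1660 (86.1%) had at least 1 flank at 1 FPKM or more in both libraries and 765 (39.7%) had both. Of all desert sequence between measured flanks, 75.9% lay beside at least 1 such gene and 24.3% between 2, and for intergenic regions the shares were 90.7 and 50.2%. Only the nearest gene reached that level for 457 members, and only the farther one for 438. The nearest gene was the one with the higher RNA for 986 members (51.1%), so distance and RNA level gave the same choice of flank for about as many members as not.

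The nearest genes of highest FPKM included FN1, RPS24, DCBLD2, RPS29, IGFBP3, RPS23, THBS1, PLK2 and FAT1. Matrix and secreted proteins were represented by FN1 with 10 members, by IGFBP3 with 13 and by THBS1, the thrombospondin 1 gene, with 13 members and 150 and 153 FPKM. RPS24, RPS29 and RPS23 encode ribosomal proteins, and their values of 1514 ± 15.4, 206 ± 2.34 and 173 ± 30.8 FPKM (SD, n = 2) are uncertain, since genes of this kind have near-identical pseudogenes that could share reads with them, which was not tested. The surface receptor gene DCBLD2 was at 342 and 360 FPKM with 6 members, and the atypical cadherin gene FAT1 at 120 and 131 with 2. PLK2 had 5 members.

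Other nearest genes with many members had little RNA. Below 1 FPKM in both libraries, DIPK2B had 31 members, the teneurin gene TENM4 had 21 at 0.355 and 0.186 FPKM, and C12orf50, listed at 0, had 21. GPC5 had 20, and SOX9 and KCNMB2 tied with 16 each. SOX9, a transcription factor gene of kidney and cartilage development, was at 0.285 and 0.333 FPKM, and its members lay 218 to 932 kb from it.

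A list of 30 developmental and signalling genes, many of them known for desert enhancers, was followed in the same way. Of these, 14 flanked a member, and of all measured protein-coding genes 3.53% did. The list was chosen for genes beside deserts, so its share is no independent result. Of the 14, 9 were at 1 FPKM or more in both libraries, as were 19 of the whole list of 30 and 56.9% of all 691 measured flanking genes. They included MYC, the orphan receptor gene NR2F2 at 29.4 and 31.3 FPKM with 5 members, ETS1 at 33.3 and 32.3 with 4, SOX4 at 39.0 and 39.9 with 9, and BMP2, a growth factor gene, at 5.28 and 5.14 with 4. ZEB2, the gene of a transcriptional repressor that promotes epithelial-to-mesenchymal transition, had 13 members at 4.06 and 3.78 FPKM. TFAP2A had 10 at 3.54 and 3.52 FPKM. FGF9 and SOX2 flanked 6 members and 1 member and were listed at 0. The renal genes PAX8, PAX2 and LHX1 flanked no member.

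Clustering of members was close to that of the other classes. Joined at gaps of at most 12.4 kb, the members formed 995 units, of which 516 were single members (26.4%). Clusters of 3 or more numbered 212 and held 903 members (46.2%), against 46.8% of intergenic and 49.4% of intragenic regions. Clusters of 5 or more held 400 members (20.5%) in 61 clusters, and the largest held 14.

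Much of this clustering lay within single peaks of replicate 1. The midpoints of 1952 members fell in 1290 H3K27ac peaks of that replicate, with a median width of 2543 bp, and 1141 members (58.4%) shared a peak with another member. With members of 1 peak counted once, 215 of 1291 units (16.7%) stood in clusters of 3 or more, against 19.7% of intergenic and 16.7% of intragenic units. The largest cluster then held 7. The 3 classes stood near each other in both counts.

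**Figure D3:**
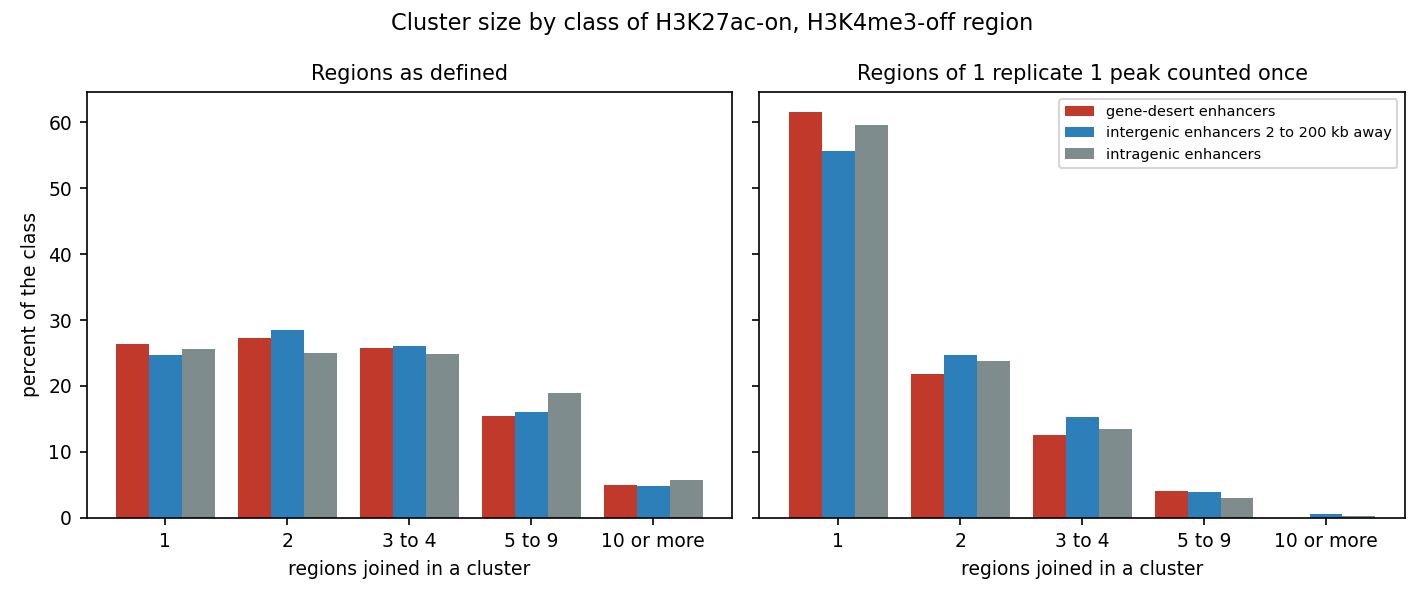
Percent of the regions in each class (red, gene-desert enhancers; blue, intergenic at 2 to 200 kb; grey, intragenic) by the number of regions joined in a cluster at gaps of at most 12.4 kb. On the left regions are counted as defined and single members make up 26.4% of the gene-desert class, and on the right regions of 1 replicate 1 peak are counted once and single units make up 61.5%.

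The cluster with the most members, 14, spanned 39.6 kb at chrX:45602401-45642000 between DIPK2B and KRBOX4. It covered MIR222HG, the host lncRNA gene of the microRNAs miR-221 and miR-222, and 9 of its members lay within a lncRNA body. Over the span, H3K27ac had 7 peaks covering 36431 bp in replicate 1 and 14 peaks covering 16920 bp in replicate 2. A cluster of 12 members at chr12:88170601-88221600 stood between MGAT4C and C12orf50, both of which were at or near 0 FPKM. Replicate 1 had 4 peaks and replicate 2 had 12 there.

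Clusters of 11 members were found at chr22:27597801-27649200, between CRYBA4 and MN1, and at chr4:139560201-139591600, between the cystine transporter gene SLC7A11 and NOCT. The former covered LINC01638. Of 5 clusters with 10 members each, the one covering the most bases, 18800 bp at chr5:57100801-57139200 between ACTBL2 and PLK2, had no lncRNA TSS within 50 kb. The others lay between SLITRK5 and GPC5, TUSC1 and CAAP1, JUN and FGGY, and CWC22 and UBE2E3. In each of the 5 clusters given with coordinates here, replicate 1 had fewer and wider H3K27ac peaks than replicate 2, and no member carried H3K27me3. H3K4me3 peaks of replicate 1 lay in 3 of them. These were 1 peak of 5064 bp in DIPK2B-KRBOX4 and 1 of 2342 bp in MGAT4C-C12orf50, each over the bin printed above, and 3 peaks covering 2936 bp in CRYBA4-MN1. Replicate 2 had 1 H3K4me3 peak, of 273 bp in CRYBA4-MN1. The numbers of members with an AP-1 match in the central 400 bp were 4, 2, 2, 4 and 3 in the order given.

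Position in relation to lncRNAs depended on whether the body or the TSS was counted. A lncRNA body held 893 members (45.7%), compared with 19.1% of all 29531 regions, 30.6% of intergenic and 9.04% of intragenic regions. By sequence alone, lncRNA bodies took up 31.9% of desert, 26.0% of intergenic and 8.04% of intragenic bins. A lncRNA TSS within 10 kb was found for 485 members (24.8%), against 25% of all regions, 32.0% of intergenic and 19.5% of intragenic ones. Of desert, intergenic and intragenic bins 10.4, 18.6 and 11.2% were as near to one. The share inside a lncRNA body was thus the highest of the 3 classes in members, while the share near a lncRNA TSS was at the background of all regions. Both were above the shares of desert sequence, and the same held for the other two classes against their own sequence. The median distance to a lncRNA TSS was 45.4 kb, a TSS lay within 1 kb of 145 members (7.42%) and within 50 kb of 1026 (52.5%), and 276 (14.1%) had none within 200 kb.

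The RNA of desert lncRNAs was then set against the presence of a member. Of 2490 lncRNA genes with a TSS in a desert, 1887 were measured, and 29 (1.54%) reached 1 FPKM in both libraries, against 4.86% of all measured lncRNAs. With a member within 10 kb of a TSS, 17 of 210 (8.10%) did, and without one 12 of 1677 (0.716%). For lncRNA genes with a TSS within 1 kb of a member it was 13 of 90 (14.4%). H3K4me3 was on at a TSS for 14.4% of the desert lncRNAs with a member within 10 kb and for 4.49% of those without, and both values were below the 24.4% of all lncRNA genes. The share at 1 FPKM and the share with H3K4me3 were higher in the desert set with a nearby member than in that without. Most lncRNAs in both sets were below 1 FPKM, and no test was made because genes are not replicates. A lncRNA with more annotated TSS had more chances of a nearby member, and its FPKM was summed over more transcripts. The part of this in the shares was not tested.

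The lncRNA of highest FPKM with a TSS within 10 kb of a member was LINC00511, at 15.4 and 18.7 FPKM with 8 members in range. MIR4435-2HG, at 17.2 and 15.2, and CYTOR, at 11.7 and 10.8, had 7 and 6 members in range, and since these genes are near-identical copies on chromosome 2 their reads may have been split between them. LINC01111 followed at 9.62 and 11.4, and PVT1, the lncRNA gene downstream of MYC, at 10.5 and 7.56 with 7 members near a TSS and 16 in its body. LINC01638 was at 7.38 and 7.20, LINC01139 at 6.33 and 7.18, and LINC01322 at 3.87 and 4.62. MIR222HG, named for its cluster and outside these 8, was at 2.89 and 3.90 with 13 members in range.

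The lncRNA bodies with the most members had mostly little RNA, as did lncRNAs in general. Of 280 measured lncRNAs with a member in the body, 18 (6.43%) reached 1 FPKM in both libraries, near the 4.86% of all measured lncRNAs. ENSG00000259345 on chromosome 15 held 19 members in 562 kb and was at 0.117 FPKM in library 1 and listed at 0 in library 2. LINC00607, beside FN1, held 18 in 237 kb at 0.438 and 0.502 FPKM. PVT1 held 16, and LINC00578, LINC01182 and ENSG00000253821 tied with 12 each, the latter pair listed at 0 and LINC00578 at 0.211 and 0.0593 FPKM. Only PVT1 of these 6 was above 1 FPKM.

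**Figure D4:**
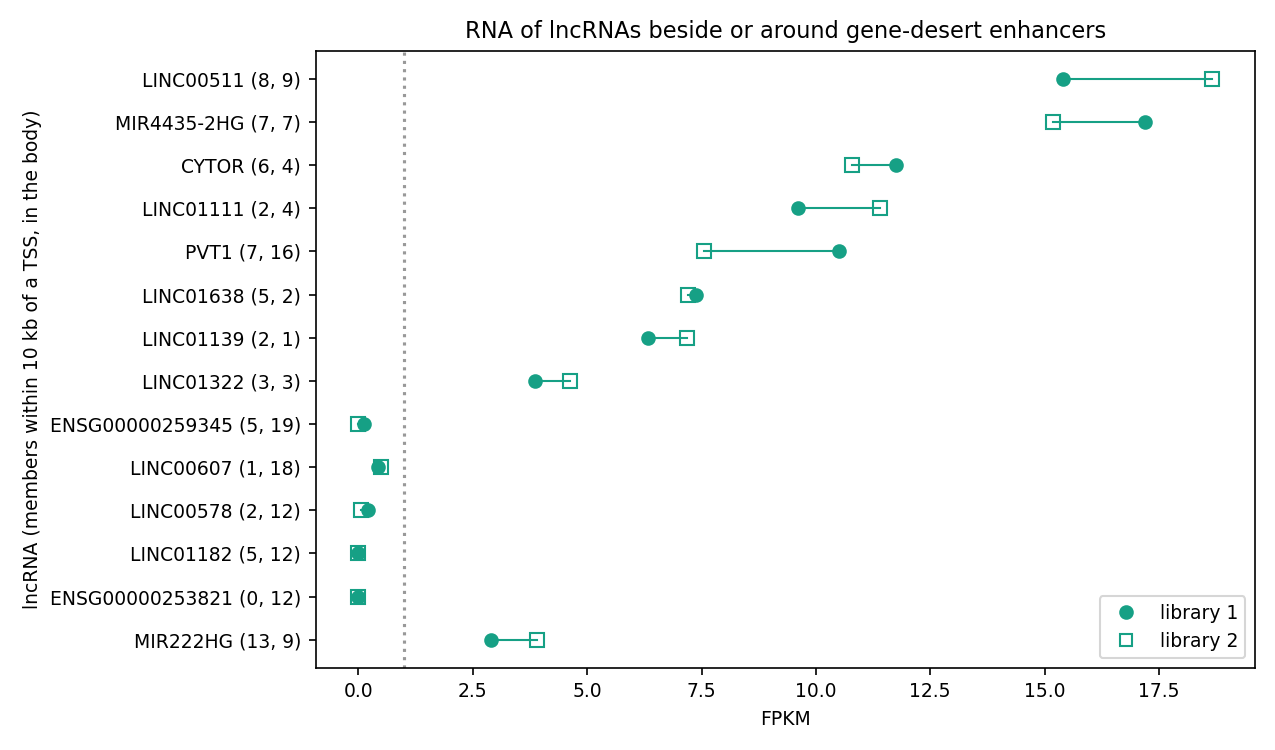
FPKM in library 1 (filled circle) and library 2 (open square) of the 8 lncRNAs of highest mean FPKM with a TSS within 10 kb of a member, then of the lncRNAs whose bodies hold the most members, and of MIR222HG. Brackets give the members within 10 kb of a TSS and in the body, and the dotted line is at 1 FPKM. The lncRNAs chosen for members in the body, apart from PVT1, lie between 0 and 0.502 FPKM.

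In the remaining marks, no member had H3K27me3 on in both replicates, 0 of 1953, which allows a share of up to 0.154% for counting error only. No H3K27me3 peak of either replicate touched a member. By sequence, the mark was on in 0.952% of desert bins in replicate 1 and in 0.239% in replicate 2. Of all 29531 regions 7 (0.0237%) had the mark on in both replicates, so the count of 0 was near the share of all regions. Of all desert bins 0.145% did, but none of the 9907 member bins, so members lay below desert sequence in this count. The cause was not tested. With marks read from replicate 2 alone, 39 of 2107 such regions (1.85%) had H3K27me3, and from replicate 1 alone 1 of 4418 did. The nearest H3K27me3 bin was at a median of 683 kb from a member, against 187 kb for intergenic and 202 kb for intragenic regions. The classes were defined by distance from protein-coding genes, and no such median was taken for desert sequence. This difference is therefore a description.

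H3K4me3 was on in replicate 1 only for part of the members. It was on in at least 1 bin in that replicate for 343 (17.6%) and in replicate 2 for 6 (0.307%), and 1604 (82.1%) had it in neither. The replicate 1 share was 30.7% of intergenic and 36.8% of intragenic regions. The replicate 2 share was 1.04 and 1.14%, so members had it less often in these counts. H3K4me3 and distance were part of the rule, so these differences between classes are a description. A bin with H3K4me3 on in both replicates adjoined 1.23% of members, against 8.74% of intergenic and 17.4% of intragenic regions. A wider region has more bins in which the mark can be on. Counted by bin, replicate 1 H3K4me3 was on in 10.7% of member bins, against 17.98% of intergenic and 22.2% of intragenic ones. By member width it was on in 9.33% of bins at 200 bp and 7.66% at 400 to 600 bp. The share was 9.13% at 800 to 1800 bp and 13.4% at 2 kb or more, without a rise at each step. A bin with H3K4me3 on in both replicates lay within 10 kb of 43 members (2.202%), against 24.9% of intergenic and 33.8% of intragenic regions, and over 200 kb away for 85.9% of members. The distance rule keeps annotated protein-coding promoters beyond that limit, so this last share is a description. The same holds for the differences between classes by bin and within 10 kb.

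AP-1 motif matches were found in the central 400 bp of 454 members (23.2%), against 19.3% of all regions, 21.4% of intergenic and 18.5% of intragenic regions. Of 1427786 windows of 400 bp in deserts without an H3K27ac peak, 13.1% held a match. Median GC content was 40.5% in members, 45.8% in intergenic regions and 36.8% in the desert windows, and its part in the shares was not tested. Other motifs were searched on both strands, CTCF among them, TEAD as GGAATG, RUNX as TGTGGT, CEBP as TTGCNNAA, KLF as GGGNGNGG and GATA as AGATAA. TEAD matches were in 23.3% of members, 19.8% of desert windows and 23.3% of intergenic regions, and RUNX in 25.04, 23.6 and 26.7%. KLF matches were in 17.97% of members, 14.0% of desert windows and 33.4% of intergenic regions. CEBP matches, in 23.09 and 22.95%, were about as frequent in members as in desert windows. GATA matches were less frequent in members than in desert windows, in 29.0 against 32.3%. Of intergenic regions, 18.4% had a CEBP match and 21.8% a GATA match, both below the shares of members. CTCF matches were rare, in 1.178% of members (23), 0.661% of desert windows and 1.901% of intergenic regions.

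The share with an AP-1 match was higher in wider members, although the window searched was the same. It was 15.5% of members of 200 bp, 17.6% at 400 to 600 bp, 28.4% at 800 to 1800 bp and 36.8% at 2 kb or more. With distance from the nearest TSS it was 23.05% at 200 to 300 kb, 22.6% at 300 to 500 kb, 24.7% at 500 to 1000 kb and 22.3% beyond. Single members had a match in 29.1% of cases and members of clusters of 10 or more in 21.4%. AP-1 matches thus moved with width and hardly with distance.

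Around the edges of members, AP-1 matches were denser just outside than just inside. They numbered 0.454 per kb in the bases 100 to 200 bp inside an edge, 0.645 per kb in the first 100 bp inside, 1.02 per kb in the first 100 bp outside and 1.26 per kb at 100 to 200 bp outside, and 0.358 per kb at 1000 to 1100 bp. Deeper inside, where fewer and wider members are counted, the density was higher again, with ups and downs. It was lowest at 200 to 300 bp from the edge, at 0.415 per kb, then 0.691 per kb at 400 to 500 bp, 1.28 per kb at 1000 to 1100 bp, 0.733 per kb at 1200 to 1300 bp and 1.56 per kb at 1900 to 2000 bp, the highest step of the profile, which rests on 15 matches in 9600 bases against 491 in 390600 for the highest step outside. Bases within 2 kb of more than 1 member were counted for each. The 628 gaps of 200 to 1000 bp between neighbouring members held 1.54 AP-1 matches per kb, against 0.665 per kb inside members. Of these gaps 264 (42.0%) held a match. Intergenic regions had 1.36 and 0.607 per kb, and intragenic regions 1.17 and 0.540, so the pattern was found in all 3 classes. In member gaps TEAD matches stood at 0.962 per kb against 0.723 inside, RUNX at 0.891 against 0.711 and GATA at 1.02 against 0.897.

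**Figure D5:**
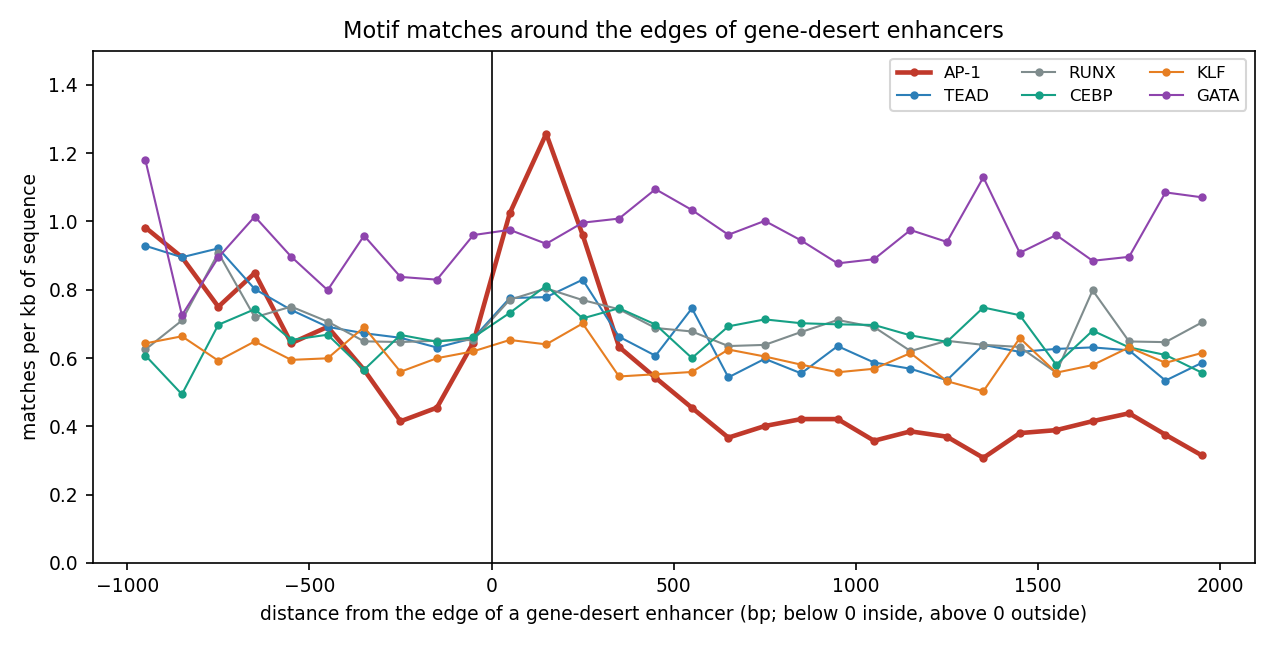
Motif matches per kb of sequence in steps of 100 bp by distance from the edge of a gene-desert enhancer, inside (below 0) and outside (above 0), for 6 motifs. Steps deeper than 1000 bp inside are not drawn. AP-1 (red) has a peak of 1.26 per kb at 100 to 200 bp outside the edge. Inside, it is lowest at 0.415 per kb 200 to 300 bp from the edge. It is higher again deeper in, with 0.750 per kb at 700 to 800 bp and 0.982 per kb at 900 to 1000 bp, where fewer members are wide enough.

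RNA of transcription factor genes was measured in the same cells. Of 9 AP-1 genes, 8 were at 1 FPKM or more in both libraries, as were 58.9% of all protein-coding genes, with JUN at 89.7 and 85.1, JUND at 62.0 and 58.5, FOSL2 at 55.0 and 56.1, JUNB at 48.5 and 45.4 and FOSL1 at 25.2 and 23.4. ATF3 was at 5.29 and 6.21, FOS at 2.27 and 2.41 and FOSB at 1.56 and 1.32, and BATF was listed at 0. JUN itself flanked 10 members, which formed 1 cluster at chr1:59478801-59509400 starting 229 kb from its TSS.

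All 6 TEAD-list genes were above 1 FPKM. They are the DNA-binding genes TEAD1 to TEAD4, at 8.07 and 16.4, 16.8 and 12.04, 9.62 and 8.19, and 20.7 and 19.5 FPKM, and the coactivator genes YAP1, at 27.1 and 29.9, and WWTR1, at 71.4 and 79.5. RUNX2, at 20.9 in both libraries, flanked 8 members, while RUNX1 was at 9.04 and 8.65, the partner gene CBFB at 35.1 and 34.6, and RUNX3 at 0.225 and 0.286.

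The CEBP genes CEBPA, CEBPB, CEBPD and CEBPG were at 6.08, 32.8, 19.3 and 7.85 FPKM in library 1 and at 5.58, 28.3, 18.8 and 7.64 in library 2, and flanked no member. All 3 KLF genes flanked members, as 3.53% of all measured protein-coding genes did, but KLF5 also stands in the list chosen for genes beside deserts, and 3 genes are too few to read a share from. Members flanked were 21 for KLF6, 5 for KLF4 at 0.592 and 0.691 FPKM and 2 for KLF5 at 8.18 and 8.42. Of the GATA genes, GATA2 was at 3.81 and 4.72, GATA6 at 1.68 and 1.86 and GATA3 at 0.557 and 0.211 with 2 members. CTCF was at 23.8 and 24.7.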

How the data were processed

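The 6 deposited ChIP-seq peak lists were made by the authors with Bowtie2 (hg19) and MACS2, 1 list per replicate. They give 3 columns, chromosome and limits (other values, such as height, are absent), so the depth behind a single peak cannot be read from them. The study lists read pairs and the fraction of reads in peaks for each library. By that list the H3K27ac replicates were similar in depth, and the fraction was far higher in replicate 1. For H3K4me3 and H3K27me3, replicate 1 had more aligned read pairs than replicate 2. The H3K4me3 fraction was also higher in replicate 1, while the H3K27me3 fractions were close. The part of these differences in the results was not tested. The deposited RNA-seq files hold the FPKM, TPM and coverage of each GENCODE 27 transcript, which the authors obtained with HISAT2 and StringTie 1.3.3. Depths of 5.67 and 5.52 Gb follow from coverage divided by FPKM. Input DNA and HiChIP were not analysed here.

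Bins, regions, distances, clusters and motif matches were computed from the lists and GRCh37 in Python 3.11.15 (numpy 2.4.6, pandas 2.3.3, matplotlib 3.10.9). TSS of all transcripts, gene bodies and lncRNAs came from GENCODE 44 mapped to GRCh37. Because RNA coordinates were GRCh38, genes were joined by Ensembl identifier, and 55822 of 58243 matched. Gene FPKM was the sum over transcripts, and an FPKM of 1 in both libraries was the threshold. Of 18592 annotated lncRNAs, 14097 had a value. With 1 condition and regions that are not replicates, no test was made. The pipeline was tested on simulated peaks and recovered 100% of 500 simulated regions.

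The members and the gene lists were chosen with earlier results of these data known. Named items follow a rule. It takes the 10 deserts and 5 clusters with the most members (ties by summed width), the 5 widest and 3 farthest members, the 8 lncRNAs of highest FPKM within 10 kb, the 5 lncRNA bodies with the most members, the 10 nearest genes of highest FPKM, the 5 below 1 FPKM with the most members, and genes of the lists. Some genes that the rule takes in, and 1 motif, are not reported here. MIR222HG and the 2 densest deserts were named after their values were seen. Alternatives covered replicates, bin coverage, H3K4me3, TSS set, distance, width, gap, window and FPKM threshold.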

Additional observations from a re-analysis of the deposited data

How the results depend on the processing

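Of 72 recomputed values, 47 stayed within 1.5 times for the number of members, or within 1 SD between the ChIP-seq replicates for a share, and 25 did not. Without 1 ChIP-seq replicate, the number of members was 2107 to 4418, the share in clusters of 3 or more 44.6 to 47.7%, with a lncRNA TSS within 10 kb 21.2 to 23.6%, of nearest genes at 1 FPKM 56.3 to 60.2%, with H3K27me3 0.0226 to 1.85%, and with an AP-1 match 22.4 to 30.7%. Without 1 RNA-seq replicate, the share of nearest genes was 61.2 to 61.8%. A distance minimum of 100 kb gave 3517 members. A minimum of 500 kb gave 591, with 38.6% in clusters, 20.1% near a lncRNA TSS and 57.1% of nearest genes at 1 FPKM. The share in clusters was 37.1% with 1 bp turning a bin on, 52.3% with H3K4me3 on in neither replicate, 43.8% for regions of 400 bp or more, and 33.4 and 55.0% with gaps of 5 and 25 kb. A lncRNA window of 1 or 50 kb gave 7.42 and 52.5%. Thresholds of 0.1 and 5 FPKM gave 70.9 and 42.8% of nearest genes, and 1 TPM gave 64.8%. An AP-1 window of 200 bp gave 12.4%. In alternatives chosen after seeing the data, a window of 1000 bp gave 58.5%, and members of 1 replicate 1 peak counted once gave 1291 units, 16.7% in clusters and 32.5% with an AP-1 match. Windows and thresholds move these shares by construction, and for the others the cause was not tested. No paired analysis was possible because a single condition leaves no groups to pair. Peak lists without scores limit each position to called or not called.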

Other observations

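Deserts with many members and little RNA at either flank were listed after the values were seen. Of 58 deserts with 10 or more members and both flanks measured, 7 (12.1%) had neither flank at 1 FPKM in both libraries, a smaller share than the 25.1% of all deserts. MGAT4C-C12orf50 had 22 members, with MGAT4C at 0.0147 and 0.0206 FPKM and C12orf50 listed at 0. The nearest TSS of a gene at 1 FPKM or more was that of C12orf29, 256 kb from the median member, at 6.95 and 7.43 FPKM. In TENM4-FAM181B, with 21 members, it was NARS2, an asparaginyl-tRNA synthetase gene, 1590 kb away at 7.46 and 8.79 FPKM. The deserts TMEM132B-TMEM132C with 16 members, ZP4-CHRM3 with 13, KCNJ2-SOX9 with 12, CDH8-CDH11 with 11 and OTOL1-SI with 10 had the nearest such TSS at 1583, 1511, 1197, 2120 and 1484 kb. A lncRNA at 1 FPKM or more lay in or within 10 kb of the stretch spanned by the members in a pair of these deserts. LINC01139 in ZP4-CHRM3 was at 6.33 and 7.18 FPKM, and LINC02376 in TMEM132B-TMEM132C at 1.76 and 1.79.

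Over all members, the nearest protein-coding TSS of a gene at 1 FPKM or more lay at a median of 442 kb, with quartiles at 289 and 734 kb. For 1224 members no other gene began closer, for 417 members 1 gene did and for 312 members at least 2 did. Such a TSS was within 500 kb of 1094 members (56.0%) and over 1 Mb from 336 (17.2%), and the farthest was 6945 kb away.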
